A study of Mus musculus with 4 samples.

Results

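The loci of 5 genes that mark neural stem cells and glia were examined in 4 chromatin immunoprecipitation sequencing (ChIP-seq) libraries from mouse neural progenitor-like cells. Members were all deposited peaks whose summit, the position of highest tag pile-up, lay in 1 of 5 windows fixed in mouse build mm9 around Nes, Vim, Fabp7, Gfap and Slc1a3. This gave 52 of 125574 peaks: 12 of 28376 in the EGFP_OK library, 8 of 16646 in Pax6, 12 of 30984 in Etv6 and 20 of 49568 in H3K4me2. The windows covered 570 kb in all.

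Every library came from 129/SvJ cells that had been differentiated from embryonic stem cells and expanded with EGF and FGF-2 at 10 ng/ml each, at passages 15 to 18. A differentiation day of 7, fixation in 1% formaldehyde for 10 min and fragments of 200 to 500 bp were also common to every library. The M2 antibody, which recognises the FLAG tag, was used for 3 libraries. The fourth was made with an antibody to dimethylated lysine 4 of histone H3 (H3K4me2). The Pax6 and Etv6 libraries have NS in their titles together with the factor's name. The remaining FLAG library has N31, EGFP and OK in its title, names no factor and is called EGFP_OK, and the H3K4me2 title has N31, Oct4, EGFP and 0hr. The sources used here do not give whether the N31 and NS cells are the same line, nor which promoter drove the tagged proteins. There was 1 library per group and no control library. No test between conditions was possible, and all intervals below are exact 95% intervals that cover counting error only.

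Nes, Vim and Gfap encode intermediate filament proteins. Nestin and vimentin are abundant in dividing neural stem cells, and Gfap in astrocytes and in radial glia-like stem cells. Slc1a3 encodes the glutamate transporter GLAST of radial glia and astrocytes, and Fabp7 the brain lipid-binding protein of radial glia. Pax6 is a paired-box and homeobox transcription factor expressed in radial glia of the developing forebrain, Etv6 is a transcription factor of the ETS family, and H3K4me2 is found at active or poised promoters and enhancers.

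The windows are wider than the genes. In the order of protein-coding genes in RefSeq, Nes lies between Crabp2 and Bcan, Vim between Trdmt1 and St8sia6, Fabp7 between Pkib and Smpdl3a, and Gfap between Fam187a and Kif18b. Slc1a3 lies between LOC102634078, beyond which is Nipbl, and Ranbp3l. The gene table at hand was of build GRCm38.p6 and not mm9. No peak was therefore assigned to a promoter, intron or neighbouring gene, and positions below are given in mm9 and as distances from the start of the window.

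The Slc1a3 window held the highest-scoring Pax6 peak of the 5 windows, and the Nes window had the largest share of its length under H3K4me2 peaks. The Fabp7 window held no Pax6, Etv6 or H3K4me2 peak. The promoters of Slc1a3, Nes and Fabp7 are shown as sequence context. They are the 250 bases before the annotated start in RefSeq, build GRCm38.p6, read 5′ to 3′ on the gene's strand, and all 5 genes were matched by symbol. Capitals mark a match to a searched motif.
Slc1a3 promoter, chr15:8710808-8711057, minus strand: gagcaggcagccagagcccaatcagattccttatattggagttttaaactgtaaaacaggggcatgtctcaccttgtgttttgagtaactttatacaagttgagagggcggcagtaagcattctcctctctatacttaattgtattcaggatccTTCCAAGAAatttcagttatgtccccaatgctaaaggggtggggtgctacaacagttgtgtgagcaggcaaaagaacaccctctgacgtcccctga
Nes promoter, chr3:87970843-87971092, plus strand: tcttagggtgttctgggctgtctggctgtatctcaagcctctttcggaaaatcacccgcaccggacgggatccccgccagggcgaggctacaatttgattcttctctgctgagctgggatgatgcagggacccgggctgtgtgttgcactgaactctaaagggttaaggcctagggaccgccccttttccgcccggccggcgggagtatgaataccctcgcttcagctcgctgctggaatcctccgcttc
Fabp7 promoter, chr10:57784673-57784922, plus strand: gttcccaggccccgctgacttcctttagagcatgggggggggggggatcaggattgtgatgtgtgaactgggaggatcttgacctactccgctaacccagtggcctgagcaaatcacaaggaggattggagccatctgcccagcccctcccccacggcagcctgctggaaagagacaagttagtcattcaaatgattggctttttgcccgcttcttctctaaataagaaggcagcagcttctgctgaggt

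The motifs searched on both strands were CCGGAAG for ETS factors, TTCACGC for the Pax6 paired domain, ATGCAAAT for POU factors, GTGGGAA for Rbpj and TTCNNNGAA for STAT factors. Of the 5 promoters, only that of Slc1a3 held any of them, a STAT match whose first base is at -96 from the start. Among 32851 promoters of the same length, 7.02% held the STAT letters, 6.91% the ETS letters, 5.42% the Rbpj letters, 1.60% the POU letters and 1.03% the Pax6 letters. G and C made up 44.8% of the Slc1a3 promoter, 58.8% of Nes, 58.4% of Vim, 55.6% of Gfap and 54.8% of Fabp7, beside a median of 52.4% over all promoters. A match is a description of letters and not a binding site, and the peaks described below were not placed relative to these promoters.

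H3K4me2 peaks were found in the Nes, Vim, Gfap and Slc1a3 windows and not in the Fabp7 window. Pax6 and Etv6 peaks were found in the Nes, Vim and Slc1a3 windows and not in those of Gfap and Fabp7, and EGFP_OK peaks were found in all 5. RNA was not measured in these files and no peak was assigned to a gene, so the activity of the marker genes was not checked. Over the 5 windows there were 3.51 H3K4me2 peaks per 100 kb (2.14 to 5.42), beside 1.92 over the whole of chromosomes 1 to 19 and X. For EGFP_OK and Etv6 the density was 2.11 per 100 kb (1.09 to 3.68) in both cases, beside 1.10 and 1.20, and for Pax6 it was 1.404 (0.606 to 2.77), beside 0.645. The whole-list density lay below the interval for H3K4me2 and inside the intervals of the 3 FLAG libraries. These intervals treat peaks as independent, and the windows were set around genes whereas the whole-list density covers all of the chromosomes. Taken singly, no window was exceptional by number. Of chromosome pieces of the same length, 16.8% held as many H3K4me2 peaks or more as the Nes window, 34.3% as Vim, 12.8% as Gfap and 16.5% as Slc1a3. H3K4me2 peaks covered 11.2% of the windows, against 3.69% of the chromosomes.

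**Figure D1:**
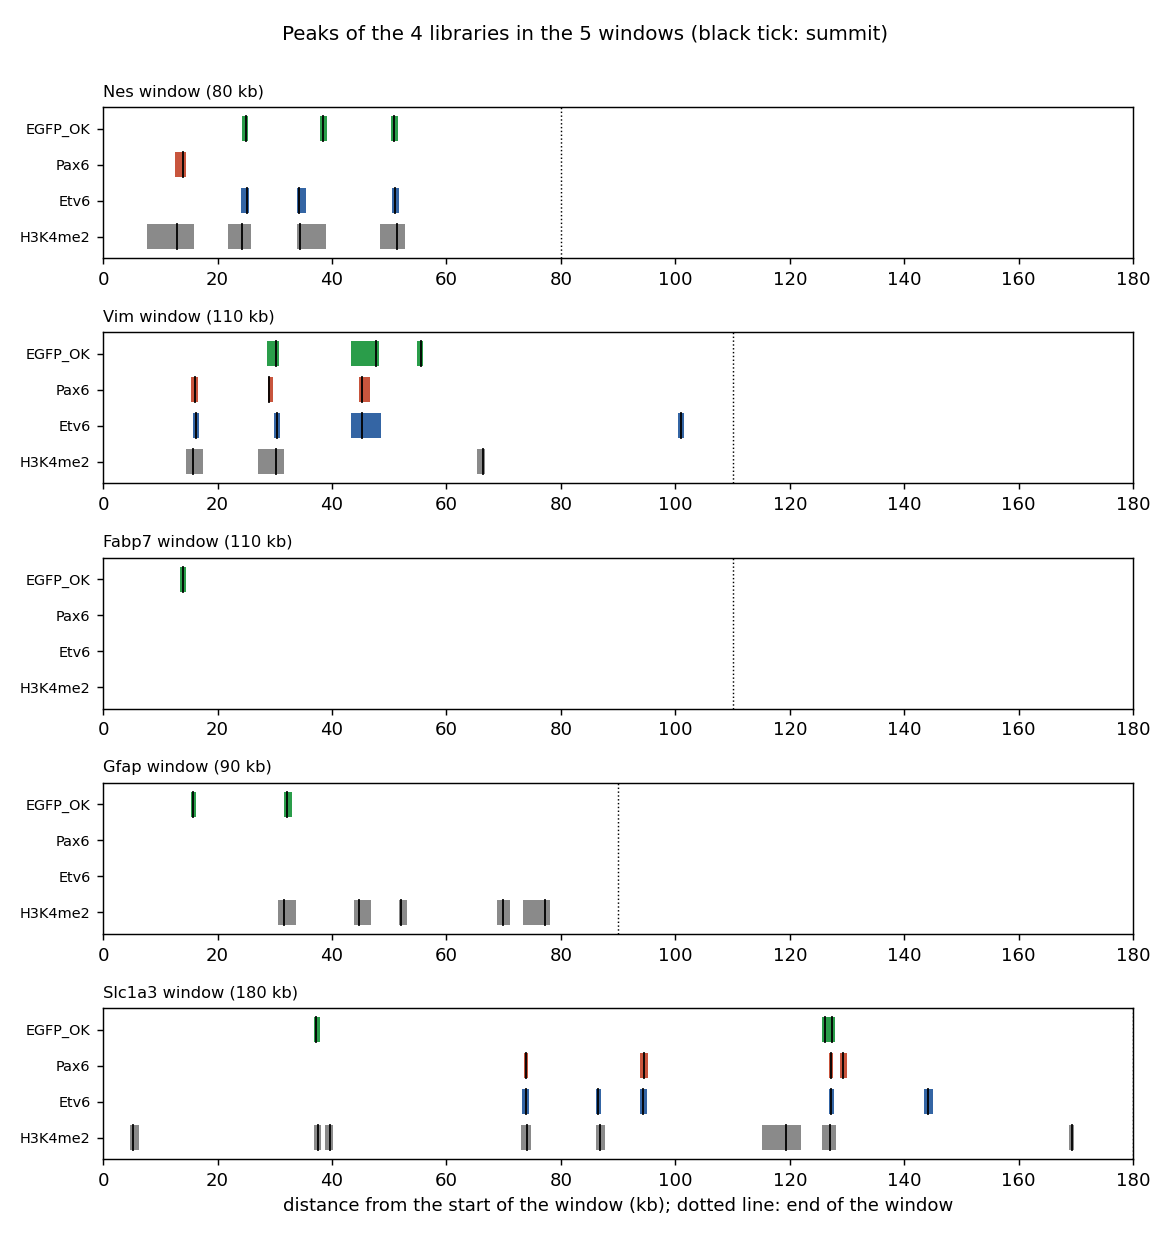
Position of the 52 peaks in the 5 windows. The x axis is the distance from the start of the window in kb, each row is a library, bars are peaks drawn to scale and black ticks are summits. The Nes, Vim and Slc1a3 windows hold regions with peaks of 3 or 4 libraries, and the Fabp7 window holds 1 EGFP_OK peak.

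**Figure D2:**
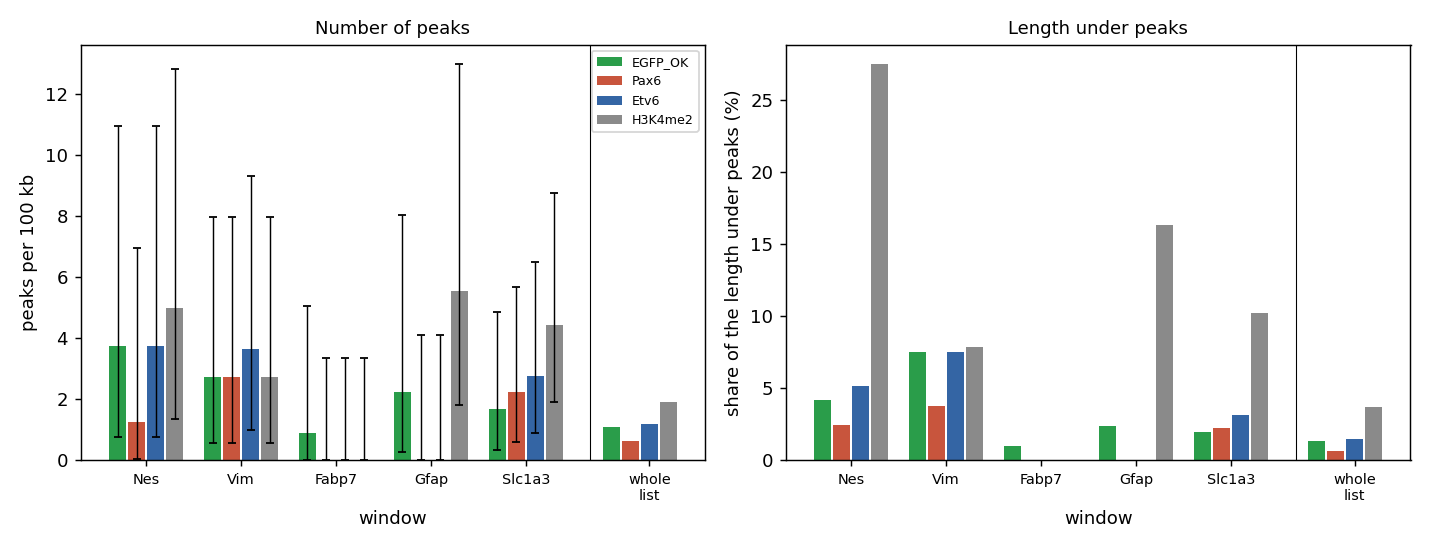
Peaks per 100 kb (left, with exact 95% Poisson intervals) and the share of the window under peaks (right) for each library and window, with the whole list on chromosomes 1 to 19 and X at the far right. H3K4me2 peaks cover 27.5% of the Nes window and 0% of the Fabp7 window, against 3.69% for the whole list.

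The Nes window (chromosome 3, 87740000 to 87820000) was the most densely covered by H3K4me2. It held 4 H3K4me2 peaks, all wider than 3 kb, which covered 21.97 kb or 27.5% of its 80 kb. When the chromosomes were divided into 32170 consecutive pieces of 80 kb, 0.504% were covered as much or more. By number alone the window was not exceptional, since 16.8% of the pieces held 4 or more H3K4me2 peaks.

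The widest of the 4, from 87747577 to 87755940, was 8364 bp wide, and 0.00607% of all H3K4me2 peaks were as wide. It held 1134 tags, or 46.2 CPM (43.5 to 48.96), which is tags scaled to 1000000 kept tags of the library, and 0.105% of the list held as many. The peak caller's statistics placed it low in the same list, with a fold over local background of 3.29 and a score, 10 times the −log10 of the caller's p-value, of 62.9. For 91.2% of the H3K4me2 peaks the score was as high or higher. Peaks were called without a control against a background taken from the same library over up to 10 kb, and the part of this in the low score was not tested.

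Pax6 had 1 peak in the Nes window, inside that widest H3K4me2 peak. It lay at 87752505 to 87754442 with 31 tags, or 5.86 CPM (3.98 to 8.32), at 4.98-fold, and its summit was 977 bp from the H3K4me2 summit. No Etv6 or EGFP_OK peak overlapped it. The Pax6 fold was among the lowest of its list, of which 99.6% was as high or higher.

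The other 3 Nes regions had peaks of Etv6, EGFP_OK and H3K4me2 and none of Pax6. In the first, 87761748 to 87765815, H3K4me2 had 495 tags, Etv6 had 69 tags at 6.23-fold and EGFP_OK had 38 tags at 5.42-fold. The Etv6 and EGFP_OK summits lay 96 bp apart. In the region from 87788304 to 87792745, H3K4me2 had 630 tags, Etv6 71 tags at 7.58-fold and EGFP_OK 43 tags at 6.26-fold, with the FLAG summits 101 bp apart. These 2 regions therefore had FLAG summits close together at 641 and 553 bp (EGFP_OK) from the H3K4me2 summit.

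The region between them differed, since its FLAG peaks sat at opposite ends of a 5099-bp H3K4me2 peak. That H3K4me2 peak, from 87773815 to 87778913, held 715 tags. The Etv6 summit was 142 bp from the H3K4me2 summit, with 55 tags at 5.10-fold. The EGFP_OK summit was 3971 bp from it, with 70 tags at 12.5-fold, and the EGFP_OK and Etv6 peaks did not overlap. This EGFP_OK peak was the strongest of the window, and 6.61% of the EGFP_OK list had as high a fold.

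The Etv6 peaks of the Nes window were also scaled to the depth of the Pax6 library, taking CPM as equal in both. With duplicates removed, Pax6 had 5288154 tags, 0.220 times the 24071748 of Etv6. Scaled by that ratio, the Etv6 peaks of 69, 55 and 71 tags correspond to 15.2, 12.1 and 15.6 tags. The weakest peak anywhere in the Pax6 list had 10 tags. All 3 scaled values were above that lowest count and below the Pax6 list's median of 19 tags. In the Vim and Slc1a3 windows, Etv6 peaks that overlapped a Pax6 peak scaled to 9.23, 10.3, 17.8, 22.0 and 76.7 tags. Those without a Pax6 overlap scaled to 7.47, 8.57, 13.8 and 14.1 tags. At matched peaks of the whole lists, the Pax6 CPM was at the median 1.32 times that of Etv6. The part of depth in the lack of Pax6 calls in the Nes window was not tested.

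The Vim window (chromosome 2, 13450000 to 13560000) held regions in which all 3 FLAG libraries had peaks, with and without H3K4me2. It contained 3 EGFP_OK, 3 Pax6, 4 Etv6 and 3 H3K4me2 peaks. Pieces of 110 kb with 3 or more Pax6 peaks made up 8.43% of 23394, and those with 3 or more H3K4me2 peaks 34.3%. H3K4me2 covered 7.84% of the window.

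The region from 13493360 to 13498532 had the most Etv6 and EGFP_OK tags of any place in the 5 windows and no H3K4me2 peak. Etv6 had 349 tags, or 14.5 CPM (13.0 to 16.1), over 5164 bp. EGFP_OK had 238 tags, or 11.1 CPM (9.71 to 12.6), over 4915 bp, and Pax6 had 51 tags, or 9.64 CPM (7.18 to 12.7), over 2032 bp. The Etv6 and EGFP_OK peaks were far wider than usual, since 0.0873% and 0.0423% of their lists were as wide.

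The folds in that region were low for each library, 4.70 for Etv6, 5.77 for Pax6 and 3.18 for EGFP_OK, against whole-list medians of 6.26, 10.6 and 7.04. The Pax6 and Etv6 summits were 47 bp apart, whereas the EGFP_OK summit was 2480 bp from the Pax6 summit and 2527 bp from the Etv6 summit. The nearest H3K4me2 summit was 15.1 kb from the Pax6 summit. Across the whole Pax6 list, 2757 peaks overlapped peaks of both other FLAG libraries, and 27.2% of those had their summit outside H3K4me2.

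In the region from 13477135 to 13481520 all 4 libraries had a peak. H3K4me2 had 499 tags over 4386 bp at 2.84-fold. EGFP_OK had 146 tags at 14.7-fold, the highest EGFP_OK fold of the 5 windows, and 2.97% of its list was as high. Its summit was 49 bp from that of H3K4me2. Etv6 had 64 tags at 5.37-fold with a summit 250 bp from that of EGFP_OK, and Pax6 had 21 tags at 10.8-fold with a summit 1209 bp away. The Pax6 and Etv6 peaks did not touch, with 119 bp between them.

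The remaining shared Vim region, 13464475 to 13467363, had peaks of Pax6, Etv6 and H3K4me2. H3K4me2 had 335 tags, Pax6 had 21 tags at 6.43-fold and Etv6 had 47 tags at 6.13-fold. The Pax6 and Etv6 summits were 270 bp apart, the longest distance among the 5 overlapping Pax6 and Etv6 pairs. Single-library peaks in the Vim window were an EGFP_OK peak of 45 tags at 13504806 to 13505897, an H3K4me2 peak of 58 tags at 13515408 to 13516757 and an Etv6 peak of 39 tags at 13550530 to 13551435.

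The Gfap window (chromosome 11, 102710000 to 102800000) had the most H3K4me2 peaks per length and no Pax6 or Etv6 peak. Its 5 H3K4me2 peaks, 5.56 per 100 kb (1.804 to 13.0), covered 16.3% of its 90 kb, and 4.04% of 28594 pieces of 90 kb were covered as much. The peak from 102740605 to 102743673 held 533 tags at a score of 892, which ranked 125 in the whole H3K4me2 list and was the highest rank of any member. The peak from 102783394 to 102788147 held the most tags, 733 over 4754 bp. The other 3 held between 158 and 223 tags.

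EGFP_OK had 2 peaks in the Gfap window, of 27 tags at 6.32-fold and 46 tags at 5.26-fold. The latter had its summit 547 bp from the summit of the H3K4me2 peak that ranked 125, and the former was 15.9 kb from any H3K4me2 summit. Pieces of 90 kb without an Etv6 peak made up 53.2% and without a Pax6 peak 65.5%, so a window without them was common. The nearest Etv6 summit lay 28.9 kb before the window and the nearest Pax6 summit 37.4 kb before it.

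The Slc1a3 window (chromosome 15, 8540000 to 8720000) held the highest-scoring Pax6 and Etv6 peaks of the 5 windows, at a place without H3K4me2. The Pax6 peak from 8633864 to 8635272 had 60 tags, or 11.3 CPM (8.66 to 14.6), at 18.7-fold. It ranked 310 of 16646 by score, and 1.84% of the list on chromosomes 1 to 19 and X had as high a score. The Etv6 peak at 8633867 to 8635020 had 100 tags, or 4.15 CPM (3.38 to 5.05), at 8.89-fold, and ranked 1467 of 30984.

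The summits of this pair were 119 bp apart, and the nearest H3K4me2 summit was 7.55 kb from the Pax6 summit. No EGFP_OK peak overlapped them. Summed over the called peaks, which were 1409 bp wide in Pax6 and 1154 bp in Etv6, the Pax6 CPM was 2.73 times (1.95 to 3.80) that of Etv6. Per kb of called peak the ratio was 2.24 (1.60 to 3.11). Among 12050 Pax6 peaks matched to an Etv6 peak the median ratio was 1.32 for the sums and 1.66 per kb, and 5.09% and 15.7% of them had ratios as high. The Pax6 library had 81% redundant tags and Etv6 22%, and the part of this in the ratio was not tested.

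At the region from 8613011 to 8614851 peaks of the same factors, called in separate libraries, overlapped inside an H3K4me2 peak. Pax6 had 19 tags at 9.51-fold, Etv6 had 81 tags at 10.2-fold and H3K4me2 had 116 tags. The 3 summits lay within 156 bp, and the Pax6 and Etv6 summits were 42 bp apart, the closest of the 5 pairs. The Etv6 fold was the highest Etv6 fold of the windows, with 6.71% of the list as high. Per kb of called peak, the ratio of Pax6 to Etv6 CPM was 1.597 (0.915 to 2.66), and its interval overlapped that of the site without H3K4me2.

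The region from 8665552 to 8667987 held peaks of all 4 libraries. H3K4me2 had 270 tags at 7.00-fold. EGFP_OK had 2 peaks there, of 46 tags at 4.82-fold and of 78 tags at 9.08-fold. The stronger had its summit 140 bp from that of Pax6, which had 16 tags at 8.61-fold, and 95 bp from that of Etv6, which had 42 tags at 4.58-fold. By score, the stronger EGFP_OK peak was in the highest 12.8% of its list, whereas the Pax6 peak was in the highest 65.2% and the Etv6 peak in the highest 92.9% of theirs.

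H3K4me2 in the Slc1a3 window was spread over 8 peaks that covered 10.2% of its 180 kb. The widest, from 8655092 to 8661862, measured 6771 bp with 719 tags at 3.64-fold and held no FLAG summit. The peak at 8576786 to 8578145 had 139 tags and an EGFP_OK peak of 37 tags, and the peak at 8626094 to 8627638 had 80 tags and an Etv6 peak of 34 tags. The remaining 3 H3K4me2 peaks, with 37 to 107 tags, had no FLAG summit. A Pax6 peak of 18 tags at 8668830 to 8669935 and an Etv6 peak of 63 tags at 8683406 to 8685100 were found in no other library. That Pax6 peak was close to the calling limit, with 99.95% of the list at its score or above.

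The Fabp7 window (chromosome 10, 57450000 to 57560000) was the only window of the 5 without an H3K4me2 peak. Its only peak, of EGFP_OK, lay at 57463350 to 57464445 with 45 tags, or 2.09 CPM (1.53 to 2.80), at 7.81-fold. Of the EGFP_OK list, 32.8% had as high a score. The nearest H3K4me2 summit was 213 kb from it, the nearest Pax6 summit 169 kb and the nearest Etv6 summit 172 kb.

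The stretch without H3K4me2 around the Fabp7 window was long. The H3K4me2 summits on its sides were 466.7 kb apart, and of 49437 distances between neighbouring H3K4me2 summits 1.56% were as long, with a median of 17.4 kb. Such long stretches made up 32.9% of the summed distances, so a place in one of them was not rare. Of 23394 pieces of 110 kb, 41.0% held no H3K4me2 peak, 49.3% no Etv6 peak and 61.6% no Pax6 peak. Within the 466.7 kb there were 6 EGFP_OK peaks, 2 Etv6 peaks and 1 Pax6 peak. The share of this stretch to which reads can be mapped was not measured.

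Pax6 and Etv6 peaks coincided at 5 places in the windows. Of the 8 Pax6 peaks, 5 overlapped an Etv6 peak, 62.5% (24.5 to 91.5), beside 72.6% of all Pax6 peaks, which lay inside the interval. The share was 37.5% with equal list lengths, and also 37.5% when summits had to lie at most 100 bp apart. The 72.6% is for overlaps of at least 1 bp on the full lists and was not recomputed for these settings. Of the 5 overlapping pairs, 3 had summits within 100 bp, beside 60.5% of 12050 over the whole list. From the other side, a Pax6 peak overlapped 5 of 12 Etv6 peaks, 41.7% (15.2 to 72.3), beside 38.9%. All 5 pairs lay in the Vim and Slc1a3 windows, at summit distances of 42 to 270 bp with a median of 47 bp, beside 76 bp over the whole list. Per kb of called peak, their ratio of Pax6 to Etv6 CPM ranged from 1.597 to 2.24, and the intervals of all 5 overlapped. The broad Vim region had 1.69 (1.23 to 2.27) per kb but 0.665 (0.486 to 0.894) for the sums, with an Etv6 peak of 5164 bp beside a Pax6 peak of 2032 bp.

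The 12 EGFP_OK peaks of the windows were few, and some of them overlapped Etv6 peaks. An Etv6 peak overlapped 6 of the 12, 50.0% (21.1 to 78.9), beside 20.9% of the whole list. A Pax6 peak overlapped 3 of these 6, 25% (5.49 to 57.2) of the 12, beside 11.7%. The whole-list share lay just below the interval for Etv6 and inside it for Pax6. These intervals treat peaks as independent, although 2 of the 6 overlapped the same Etv6 peak in the Slc1a3 window. The other 6 EGFP_OK peaks were in no other FLAG list, 50.0% (21.1 to 78.9), beside 77.0%. The same was true of 4 of 12 Etv6 peaks, 33.3% (9.92 to 65.1), beside 50.9%, and of 2 of 8 Pax6 peaks, 25% (3.19 to 65.1), beside 23.9%. EGFP_OK and Etv6 summits in the 6 pairs were 95 to 2527 bp apart, with a median of 175.5 bp, beside 128 bp over the whole list, and 2 of the 6 pairs lay within 100 bp, beside 42.8%. An EGFP_OK peak overlapped 5 of 12 Etv6 peaks, 41.7% (15.2 to 72.3), beside 19.2%, and 3 of 8 Pax6 peaks, 37.5% (8.52 to 75.5), beside 20.1%.

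EGFP_OK summits lay inside H3K4me2 at 8 of 12 places, 66.7% (34.9 to 90.1), beside 26.9% of the whole list. All 6 in the Nes and Slc1a3 windows did, with 1 in Vim and 1 in Gfap. Etv6 summits were inside at 8 of 12 places as well, 66.7% (34.9 to 90.1), beside 51.9%, and Pax6 summits at 5 of 8, 62.5% (24.5 to 91.5), beside 43.7%. The whole-list share lay outside the interval for EGFP_OK and inside it for Etv6 and Pax6. The intervals treat peaks as independent, although some of these summits shared an H3K4me2 peak. H3K4me2 peaks also covered 11.2% of the windows, against 3.69% of the chromosomes, and the part of this in the shares was not tested. EGFP_OK and H3K4me2 are the libraries with N31 in their titles, and the cells cannot be told apart from the precipitated proteins.

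Seen from H3K4me2, 11 of the 20 peaks held a FLAG summit, 55.0% (31.5 to 76.9), beside 40.3% of the whole list. These were 4 of 4 in the Nes window, 2 of 3 in Vim, 1 of 5 in Gfap and 4 of 8 in Slc1a3. Etv6 summits were in 8, or 40% (19.1 to 63.9), beside 31.9%. EGFP_OK summits were in 7, or 35.0% (15.4 to 59.2), beside 15.3%, and Pax6 summits in 5, or 25% (8.66 to 49.1), beside 14.5%. The whole-list share lay just below the interval for EGFP_OK and inside the interval for any FLAG summit, for Etv6 and for Pax6. The H3K4me2 peaks of the windows were also wider than the list, with medians of 2662.5 and 1628 bp. The part of width in these shares was not tested.

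**Figure D3:**
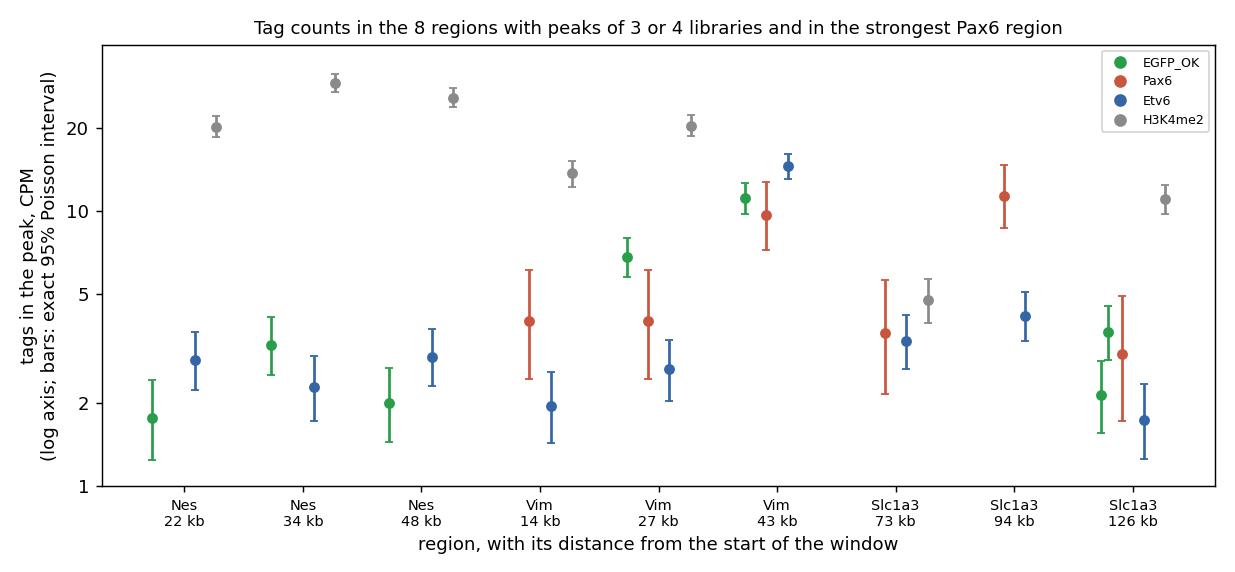
CPM (log axis) in each peak of the 8 regions with peaks of 3 or 4 libraries, and in the region of the strongest Pax6 peak (Slc1a3, 94 kb). Points are single libraries and bars are exact 95% Poisson intervals. Values are sums over separately called peaks, whose widths differ between libraries. At the Slc1a3 region at 94 kb Pax6 has 11.3 CPM over 1409 bp and Etv6 4.15 CPM over 1154 bp.

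Pooled over the windows, the H3K4me2 peaks were wider and had more tags at the median than the list, but the windows differed. Their median width was 2662.5 bp, beside 1628 bp for the list, and 9 of 20 were wider than 3 kb, beside 14.4% of the list. These 9 were 4 of 4 in the Nes window, 3 of 5 in Gfap, 1 of 3 in Vim and 1 of 8 in Slc1a3. The median width in the Slc1a3 window was 1566.5 bp, below that of the list. The median of all 20 was 246.5 tags, beside 120, and 8 of 20 were in the highest 10% by tags. In the Slc1a3 window the peaks of 37, 74, 80, 107 and 116 tags were below the list median. Those of 139, 270 and 719 tags were above it. By fold they were not high, with a median of 5.44 beside 5.82 and 3 of 20 in the highest 10%. In the whole list, peaks over 3 kb had a median fold of 4.6 and those up to 1 kb of 6.22, so wide peaks had lower folds in general.

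**Figure D4:**
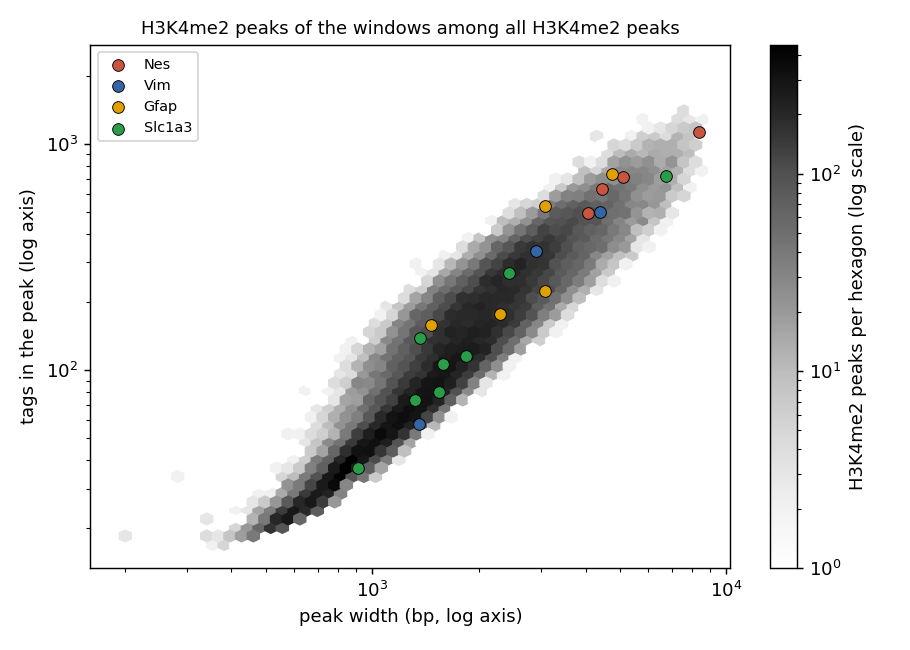
Width (x axis, bp, log) and tags (y axis, log) of all H3K4me2 peaks on chromosomes 1 to 19 and X as grey hexagons, with the 20 peaks of the windows as coloured points. The 4 Nes peaks lie at the wide end, between 4068 and 8364 bp.

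The place of the FLAG peaks in their own lists depended on the measure. By score, 1 of 12 EGFP_OK, 1 of 8 Pax6 and 1 of 12 Etv6 peaks were in the highest 10%, at Vim for EGFP_OK and at Slc1a3 for both others. The median fold was 5.84 for EGFP_OK, 7.52 for Pax6 and 5.75 for Etv6, each below its whole-list median. By tags, Etv6 had a median of 63.5, beside 54 for its list, with 8 of 12 peaks in the upper 50%, and Pax6 had 21, beside 19, with 5 of 8. EGFP_OK had 45.5 tags, beside 47, with 4 of 12 in the upper 50%. Of the H3K4me2 peaks 4 of 20 were in the highest 10% by score, 3 of them in the Gfap window and 1 in the Nes window.

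**Figure D5:**
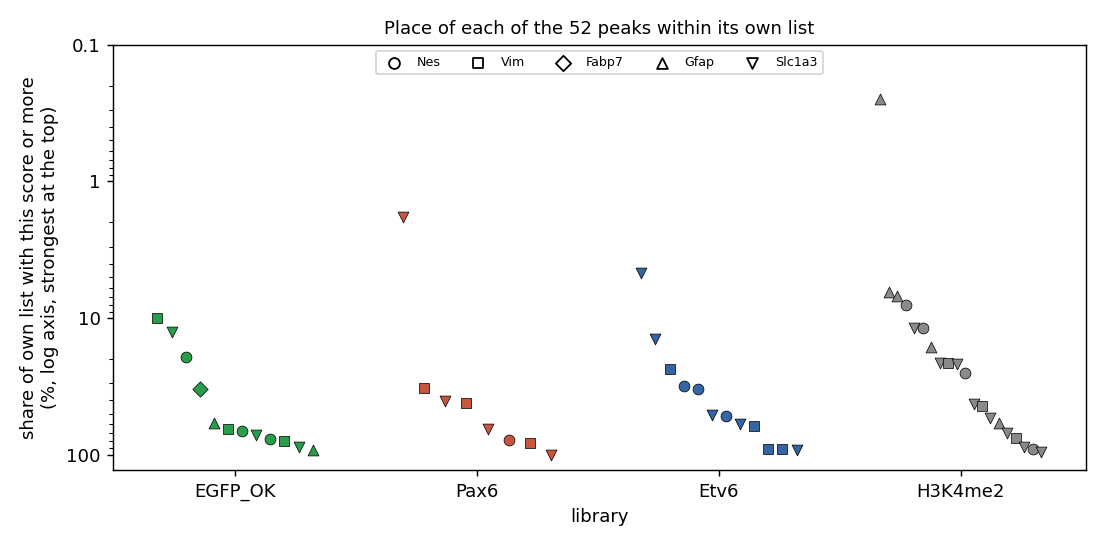
Place of each of the 52 peaks within its own list, as the share of that list with the same score or more (y axis, log, strongest at the top), by library. Symbols are windows. The Gfap H3K4me2 peak that ranked 125 and the Pax6 peak of Slc1a3, at 1.84%, lie highest.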

How the data were processed

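Peaks were called with MACS 1.4.2 on each library separately, with no control file, at a p cutoff of 1e-05 and with at most 1 tag kept per position, per the file headers. The submitters' processing notes also name CASAVA 1.8.1, BWA 0.6.2 and build mm9. The tag counts per peak were deposited by the authors without normalization. The score, 10 times the −log10 of the caller's p-value, and the fold over local background (a ratio) are the authors' own values, per the file headers, and served only to describe or rank peaks within a list. Kept tags were 21498324 for EGFP_OK, 5288154 for Pax6, 24071748 for Etv6 and 24550365 for H3K4me2.

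From these, CPM (tags per 1000000 kept tags), overlaps (at least 1 bp), summit placement and exact (Clopper-Pearson, Poisson or conditional binomial) 95% intervals were computed with scipy 1.17.1, pandas 2.3.3 and numpy 2.4.6 under Python 3.11.15. Neighbouring peaks are not independent. Whole-list values use chromosomes 1 to 19 and X between the outermost peaks. The computation of overlaps was checked on simulated peaks with a planted share of overlaps. That check covers the computation and is no test of the overlaps reported here. The text names the highest-scoring peak of each list in each window, regions with peaks of at least 3 libraries and the widest H3K4me2 peaks, and the remaining peaks by tags. Members, windows and lists were chosen with earlier results of these data known. Width classes, long stretches without H3K4me2 and tag ratios were added after the values were seen.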

Additional observations from a re-analysis of the deposited data

How the results depend on the processing

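Of 99 alternatives over 11 counts and shares, 85 stayed within 1.5 times the count or within the interval of the share. Some of the 85 could not move, since leaving out the Fabp7 locus takes away no Pax6, Etv6 or H3K4me2 peak. Leaving out the Gfap locus likewise takes away no Pax6 or Etv6 peak. The intervals of the shares were also wide. Pax6 summits in H3K4me2 went from 62.5% to 25% with equal list lengths and stayed within 24.5 to 91.5. With peaks of a score of at least 100 only, the windows held 4 EGFP_OK, 1 Pax6 and 5 Etv6 peaks, the share of Pax6 peaks with Etv6 was 100% (1 of 1), that of EGFP_OK peaks with Pax6 or Etv6 was 0% (0 of 4) and that of Pax6 summits in H3K4me2 was 0% (0 of 1). With equal list lengths of 16604 peaks there were 5 EGFP_OK, 7 Etv6 and 11 H3K4me2 peaks. With summits at most 100 bp apart, 16.7% (2 of 12) of EGFP_OK peaks met Pax6 or Etv6. Over the whole list, 42.8% of the 5932 EGFP_OK peaks that overlapped an Etv6 peak had summits within 100 bp. The shares over the whole lists were not computed for these settings, so a fall is not particular to the windows on these values. Without the Slc1a3 locus there were 4 Pax6, 7 Etv6 and 12 H3K4me2 peaks, and without the Vim locus 5 Pax6 peaks. These settings kept fewer peaks, left out a locus or used a stricter rule, and the part of each in the changes was not tested. No paired analysis was possible because each group held 1 library. Scaled to the kept tags of Pax6, the 12 Etv6 peaks of the windows correspond to 7.47 to 76.7 tags, beside 10 tags in the weakest Pax6 peak of the whole list.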
